A study of Mus musculus with 8 samples.

Results

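The noncoding RNA genes Rn7sk, Rpph1, Rmrp, Terc, Rny1, Rny3, Malat1 and Neat1 were followed in RNA from 8 mouse tumors. They were chosen by name as abundant structural or nuclear RNAs and are 8 of the 49671 genes of the deposited count table. Every tumor carried the same genotype (HprtCre with loxP sites in Ewsr1 and in Atf1), in which recombination by Cre, expressed from the Hprt locus, is meant to join both genes, and no drug was given. The tumors, frozen when the animals became ill from them, form 1 group without a control, and their titles number them 1, 2L, 2R, 3, 4a, 4b, 5 and 6. What a number or its suffix stands for is not given in the sources used here. Nor is it said that each library came from a separate animal. The tests below therefore concern libraries and title numbers and do not measure the spread between animals. Of 7 markers of clear cell sarcoma and melanocytic cells, Mitf (30.3 to 130.5 CPM) and S100b (4.20 to 113.8 CPM) were present in all libraries. Dct ran from 0 CPM in 6 to 74.04 CPM in 3 and Pmel from 0 CPM in 3 to 1.91 CPM in 6, Sox10 did not exceed 0.235 CPM, and Tyr and Mlana had 0 counts.

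These RNAs work without being translated. Rn7sk encodes 7SK RNA, which with Hexim proteins holds the elongation kinase of Cdk9 and cyclin T in an inactive particle. Rpph1 is the catalytic RNA of RNase P, which trims the leaders of precursor tRNAs, and Rmrp is the related RNA of RNase MRP, which acts on precursor ribosomal RNA and shares most of its proteins with RNase P. Rny1 and Rny3 are Y RNAs, bound by the Ro60 and La proteins. These small RNAs are made by RNA polymerase III. Terc, the template RNA of telomerase, and the long RNAs Malat1 of nuclear speckles and Neat1 of paraspeckles are made by RNA polymerase II.

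The small RNAs are shown with their lengths and with stretches that they share or are known for. The part of these stretches in the counting was not tested. Sequences are those of the GENCODE M21 transcripts (mm10), written as DNA. The first 120 bases of Rn7sk (chr9:78175303-78175633, minus strand, 331 bases) are shown with each GATC in capitals, the letters that Hexim1 is known to bind in 7SK RNA. The RNA holds 3 of them, all in this stretch, and so do 7.99% of the annotated transcripts within their first 331 bases. GATC reads the same on both strands.
Rn7sk: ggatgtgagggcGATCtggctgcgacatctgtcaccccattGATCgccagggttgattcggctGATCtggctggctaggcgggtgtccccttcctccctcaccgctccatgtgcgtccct

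Rpph1 (chr14:50807449-50807767, minus strand, 319 bases) and Rmrp (chr4:43492788-43493058, minus strand, 271 bases) are shown with the shared runs of at least 8 bases in capitals. There are 3 such runs, covering 26 bases of each RNA, and their order differs between both RNAs. How often RNAs of this length share as many runs by chance was not tested. Of Rpph1 the first 300 bases are given, and its last run, at bases 311 to 318, lies beyond them.
Rpph1: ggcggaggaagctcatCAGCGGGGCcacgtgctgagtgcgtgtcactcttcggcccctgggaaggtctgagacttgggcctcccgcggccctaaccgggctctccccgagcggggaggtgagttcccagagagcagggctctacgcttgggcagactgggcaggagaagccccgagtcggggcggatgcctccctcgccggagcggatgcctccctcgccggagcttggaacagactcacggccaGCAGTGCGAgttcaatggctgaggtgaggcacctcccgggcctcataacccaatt
Rmrp: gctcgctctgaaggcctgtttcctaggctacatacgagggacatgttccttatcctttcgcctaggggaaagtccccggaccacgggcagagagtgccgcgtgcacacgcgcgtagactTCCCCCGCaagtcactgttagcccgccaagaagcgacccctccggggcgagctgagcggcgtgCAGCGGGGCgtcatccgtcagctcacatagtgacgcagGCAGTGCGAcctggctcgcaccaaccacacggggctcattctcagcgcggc

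Rny3 (chr6:47781624-47781725, plus strand, 102 bases) and Rny1 (chr6:47788069-47788180, minus strand, 112 bases) lie 6344 bases apart and are marked in the same way. Their 3 shared runs stand in the same order, and 79.4% of 102 aligned bases were identical. The first and last runs belong to the paired ends of Y RNAs, and each RNA ends in 4 T, the kind of run at which RNA polymerase III stops.
Rny1: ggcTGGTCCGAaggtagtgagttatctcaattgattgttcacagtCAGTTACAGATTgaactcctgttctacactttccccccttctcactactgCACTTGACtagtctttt
Rny3: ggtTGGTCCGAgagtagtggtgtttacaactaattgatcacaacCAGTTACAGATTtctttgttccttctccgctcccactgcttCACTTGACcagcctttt

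The first 120 bases of Terc (chr3:96414437-96414859, minus strand, 423 bases) are shown with the longest run complementary to the telomere repeat TTAGGG in capitals, which contains the template. The run spans bases 28 to 36, and 0.13% of annotated transcripts hold the same 9 letters within their first 423 bases.
Terc: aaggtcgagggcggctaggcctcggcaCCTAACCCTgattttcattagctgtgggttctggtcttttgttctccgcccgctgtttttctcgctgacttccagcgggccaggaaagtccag

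Malat1 (chr19:5795690-5802672, minus strand, 6983 exonic bases) and Neat1 (chr19:5824708-5845478, minus strand, 20771 exonic bases) are neighbors 22036 bases apart. The promoter of Malat1 is shown because the engineered fusion contains Atf1, a factor that binds the cyclic AMP response element. It spans 250 bases before to 50 after the start (chr19:5802623-5802922, minus strand, RefSeq, GRCm38.p6), with TGACG, the core of that element, in capitals on either strand, where the other strand reads CGTCA. It holds 3 matches, beginning at bases -154, -45 and -3 relative to the start. At least 1 TGACG was present in 20.8% of 32851 promoters of this length, and the share with 3 matches was not measured. The full TGACGTCA, present in 1.8%, was not in this window. Of the 8 genes, 1 matched the promoter table.
Malat1 promoter: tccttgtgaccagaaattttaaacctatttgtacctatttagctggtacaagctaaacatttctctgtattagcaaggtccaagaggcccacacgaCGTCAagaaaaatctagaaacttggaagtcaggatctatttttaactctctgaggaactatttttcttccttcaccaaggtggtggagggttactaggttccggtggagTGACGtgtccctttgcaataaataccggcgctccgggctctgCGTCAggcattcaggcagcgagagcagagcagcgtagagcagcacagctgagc

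Gene overlaps could touch some counts. Strand handling is not given in the sources used here, nor is the treatment of reads that fit several genes or copies. Low counts of an overlapping gene or copy therefore do not show that no reads were lost. Rpph1 overlaps Ccnb1ip1 on its own strand, and Ccnb1ip1 held 1 count in all libraries together. Rmrp overlaps Ccdc107 on the other strand, whose counts were 0.358% of those of Rmrp. It also overlaps a second annotated Rmrp entry that has no row in the table. The features within Malat1 and Neat1 held at most 18 counts. Of near-identical annotated copies (at least 90% identity over 80% of the length), Rny1 had 2 in the table, both at 0 counts, and Rn7sk, Rpph1, Terc and Rny3 had 0.

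Libraries held between 4817902 and 19682149 counts. Library 3 was the smallest and stood apart: mitochondrial genes took 33.8% of its counts and Gm26917, Gm42418 and Gm23935 another 39.9%, against at most 27.3% and 14.3% elsewhere. The latter 3 were listed here as genes of the ribosomal repeat. Nuclear protein-coding genes took 23.6% of the counts in library 3 and between 57.4% and 93.9% in the others. Levels below are CPM, counts scaled to library size with TMM factors, which correct for such abundant RNAs, and shares are percentages of all counts of a library. The TMM factor of library 3 was 0.39, so its shares are low where its CPM are moderate, and both are given. Since these are bulk tumors, fewer cells of a type and less RNA per cell cannot be told apart.

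Together the 8 RNAs took between 1.46% of the counts in library 3 and 8.82% in library 5, with a median of 4.55%. Library 4b followed at 7.88%, and 2L was the lowest of the others at 2.21%. Rn7sk took the largest median share and Terc by far the smallest.

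**Figure D1:**
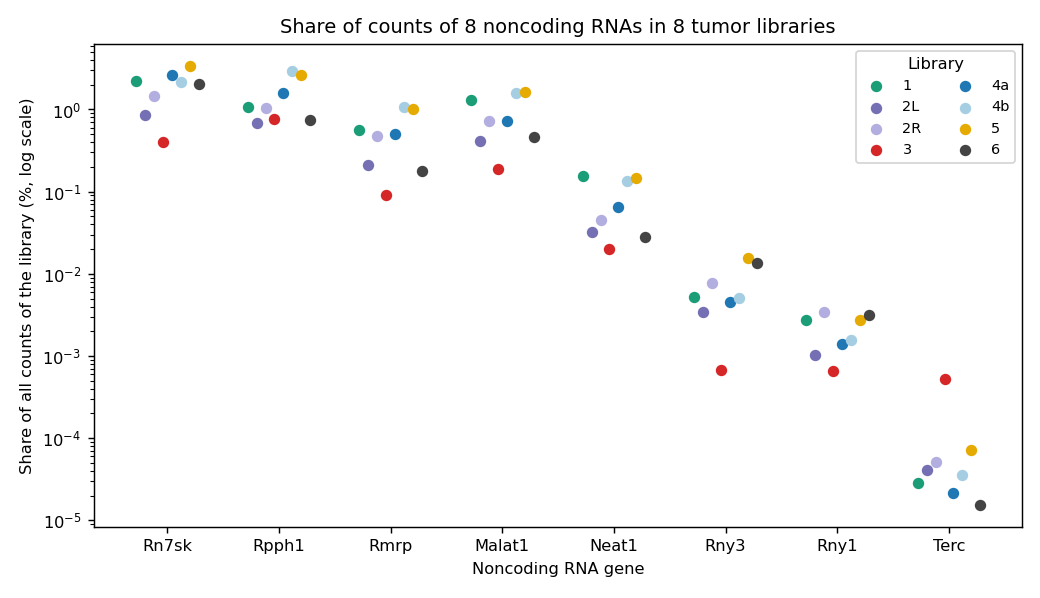
Share of all counts of a library (percent, log scale) for each RNA, with 1 point for each of the 8 libraries. Rn7sk lay between 0.397% and 3.39%, library 3 was lowest for 6 of the 8 RNAs, and it was highest for Terc.

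Per kilobase of exon, which allows RNAs to be compared, the order of mean levels was Rn7sk at 54679 ± 25169 CPM per kilobase, Rpph1 at 46121 ± 25868, Rmrp at 18354 ± 12369, Malat1 at 1225 ± 724, Rny3 at 654 ± 488, Rny1 at 190 ± 99.96, Neat1 at 36.8 ± 24.8 and Terc at 4.68 ± 10.8 (SD, n = 8). Rn7sk stood above Rpph1 in 6 of 8 libraries, with overlapping ranges, and the differences between neighbors in the order were not tested. Malat1 stood above Rny3 in 7 of 8, with overlapping ranges, and Neat1 above Terc in 7 of 8. The remaining neighbors kept their order in all 8 libraries. Rn7sk, Rpph1 and Rmrp were the third, the fourth and the eighth most abundant among the 11505 genes that passed the filter on low counts and Neat1 stood above 94.1% of them. Length scaling is uncertain for RNAs that are as short as sequenced fragments, such as the Y RNAs.

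Rn7sk had the highest mean level of the 8, although Rpph1 stood above it in libraries 3 and 4b. The share of counts of Rn7sk was lowest in library 3 at 0.397%, had a median of 2.11% and was highest in library 5 at 3.39%. After scaling it ran from 6663 CPM in 2L over a median of 18038 to 34777 in 5, with a mean of 18099 ± 8331 CPM (SD, n = 8). Libraries 1, 2R, 4a, 4b and 6 lay close together, between 16296 and 20832 CPM, with 2L and 3 below them and 5 above. Its SD of log2 CPM was 0.71, the smallest of the 8 RNAs but still above that of 71.2% of the genes kept, whose median was 0.51.

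Of 7 protein genes of the 7SK particle 6 passed the filter, with a median SD of log2 CPM of 0.31, and 0 were called in the test among title numbers given further on, which called 0.0% of all genes. Ccnt1 and Ccnt2, the cyclins of the kinase, stood at 64.9 ± 11.9 and 56.3 ± 12.5 CPM (SD, n = 8). Mepce, the enzyme that caps 7SK RNA, varied most, from 11.7 CPM in 4b to 41.5 CPM in 3. The RNA ran differently there, since Rn7sk was second lowest in 3.

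Rpph1 and Rmrp, the RNAs of both sister enzymes, differed in their order across tumors. The share of Rpph1 was lowest in 2L at 0.691%, had a median of 1.06% and was highest in 4b at 2.90%. Scaled, Rpph1 ran from 5328 CPM in 2L over a median of 12542 to 27229 CPM in 5, a 5.11-fold range, with a mean of 14713 ± 8252 CPM (SD, n = 8). It was high in 5, 4b and 3 and low in 2L and 6. The share of Rmrp was lowest in 3 at 0.0919%, had a median of 0.494% and was highest in 4b at 1.08%. Scaled, Rmrp ran from 1408 CPM in 6 over a median of 4541 to 10283 CPM in 5, a 7.30-fold range, with a mean of 4974 ± 3352 CPM (SD, n = 8). It was high in 5 and 4b, as Rpph1 was, but stood at only 2360 CPM in 3.

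The count ratio of Rpph1 to Rmrp within a library, which no scaling can change, shows this. It was 8.25 in library 3 and between 1.91 and 4.21 in the other 7. The ratio of Rn7sk to Rpph1 was 0.524 in 3, 0.743 in 4b and between 1.25 and 2.75 in the others, so library 3 was rich in Rpph1 relative to both other abundant small RNAs. Library 6 was instead rich in Rn7sk relative to Rmrp, with a ratio of 11.6 against 2.002 to 5.15 elsewhere.

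**Figure D2:**
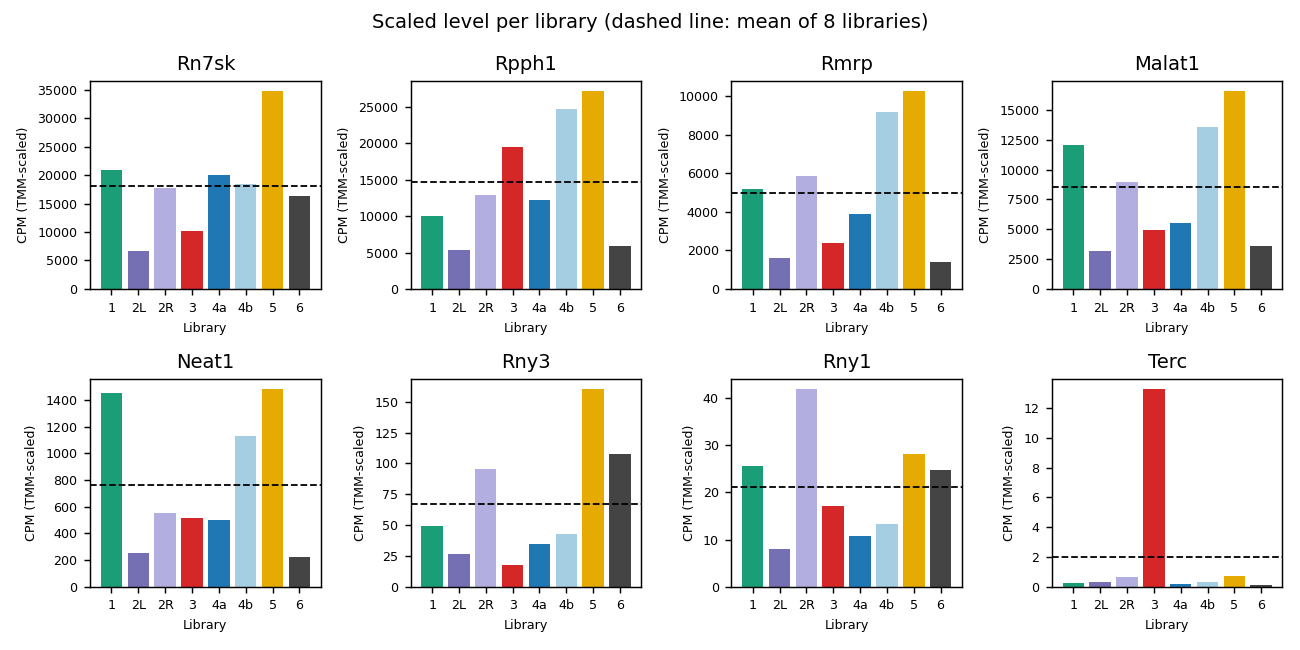
TMM-scaled level (CPM) of each RNA in each of the 8 libraries, 1 bar per library, with the mean as a dashed line. Library 5 was highest for 6 of the 8 RNAs, 2R for Rny1 and 3 for Terc.

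Library 5, the highest for Rn7sk, Rpph1, Rmrp, Rny3, Malat1 and Neat1, also stood apart in its makeup. The 3 red cell markers took 1.21% of its counts and at most 0.0386% elsewhere. Mitochondrial protein-coding genes took 6.01% of its counts, second to library 3 at 18.7%. Their part in the levels of the RNAs was not tested.

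Of 11 protein genes of RNase P and RNase MRP, 8 passed the filter and 0 were called, beside 0.0% of all genes. Their median SD of log2 CPM was 0.37. Pop4, a core subunit that both enzymes share, and Rpp14 stood at 18.97 ± 4.96 and 15.6 ± 3.44 CPM (SD, n = 8). Pop7 varied most, from 4.46 CPM in 4b to 14.9 CPM in 3. The SDs of the RNAs were 0.88 for Rpph1 and 1.09 for Rmrp, and the difference from the proteins was not tested.

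The Y RNAs were counted at far lower depth. Rny3 held between 33 counts in 3 and 2640 in 6, and Rny1 between 32 in 3 and 610 in 6. The share of Rny3 was lowest in 3 at 0.000685%, had a median of 0.00516% and was highest in 5 at 0.0157%. Scaled, Rny3 ran from 17.6 CPM in 3 over a median of 46.05 to 160.8 CPM in 5, with a mean of 66.7 ± 49.7 CPM (SD, n = 8). Libraries 6 at 107 CPM and 2R at 95.4 CPM came next. The share of Rny1 was lowest in 3 at 0.000664%, had a median of 0.00216% and was highest in 2R at 0.00344%. Scaled, it ran from 7.99 CPM in 2L over a median of 20.9 to 42.04 CPM in 2R, with a mean of 21.2 ± 11.2 CPM (SD, n = 8). Rny3 exceeded Rny1 in all 8 libraries, with a count ratio from 1.03 in 3 to 5.70 in 5. Library 6 was the second highest for Rny3 and at 24.8 CPM near the middle for Rny1, although it was lowest or second lowest for Rpph1, Rmrp, Malat1 and Neat1. The Y RNA binding proteins La (Ssb) and Ro60 (listed as Trove2) stood at 112 ± 31.1 and 87.5 ± 20.3 CPM (SD, n = 8). Both were lowest in 3, and neither was called, beside 0.0% of all genes.

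Terc was close to the limit of detection, with 58 counts in all 8 libraries. For libraries 1, 2L, 2R, 3, 4a, 4b, 5 and 6 its counts were, in that order, 3, 8, 4, 25, 4, 4, 7 and 3. Its share in library 3 was 0.000519% of all counts, with an exact 95% binomial interval of 0.000336% to 0.000766%, which covers counting error only. The next highest share was 7.18e-05% in library 5, with an interval of 2.89e-05% to 0.000148%, and the lowest was 1.55e-05% in library 6. Library 3 thus held 25 of the 58 counts although it was the smallest library, and its interval did not overlap those of the others. After scaling, Terc stood at 13.3 CPM in 3 and between 0.122 and 0.737 in the others. The mean was 1.98 ± 4.59 CPM (SD, n = 8) with library 3 and 0.361 ± 0.231 CPM (SD, n = 7) over the other libraries at the same scaling. Terc did not pass the filter, so it was tested only in the alternative without a filter, given further on. Library 3 also had the highest share of mitochondrial genes, and the part of its composition in the level of Terc was not tested.

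The 8 telomerase protein genes all passed the filter, and 0 were called, beside 0.0% of all genes. Parn, a nuclease that trims the end of telomerase RNA, stood at 27.6 ± 6.26 CPM and Nhp2, which binds that RNA, at 22.2 ± 8.24 CPM (SD, n = 8), the latter highest in 3 at 40.5 CPM. Gar1, a protein of the same class, varied most, from 1.45 CPM in 2L to 13.8 CPM in 3. Tert, the reverse transcriptase, named after its values were seen, ran from 1.12 CPM in 4a to 5.86 CPM in 3. Of the 8 genes 5 were highest in library 3, namely Tert, Nhp2, Gar1, Wrap53 and Naf1, the last pair again named after their values were seen. Among named genes of the other protein lists, Mepce, Pop7, Srrm2, Son and Snapc4 were also highest in library 3, while La and Ro60 were lowest. The share of all genes that were highest in library 3 was not measured, so the count is not particular to telomerase genes. Parn was lowest there, at 18.6 CPM, as was Nop10, also named after its values were seen, at 7.46 CPM. The part of scaling in these values was not tested.

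Malat1 and Neat1 varied in parallel across tumors. The share of Malat1 was lowest in 3 at 0.191%, had a median of 0.728% and was highest in 5 at 1.62%. Scaled, Malat1 ran from 3162 CPM in 2L over a median of 7233 to 16606 CPM in 5, with a mean of 8553 ± 5052 CPM (SD, n = 8). The share of Neat1 was lowest in 3 at 0.0199%, had a median of 0.0554% and was highest in 1 at 0.156%. Scaled, Neat1 ran from 224 CPM in 6 over a median of 534 to 1485 CPM in 5, with a mean of 764 ± 515 CPM (SD, n = 8). For both RNAs libraries 5, 1 and 4b were the highest 3 and 2L and 6 the lowest 2, and library 3 was the third lowest for Malat1 and the fourth lowest for Neat1. The count ratio of Malat1 to Neat1 stayed between 8.30 in 1 and 16.2 in 6. The SD of its log2 was 0.33. Rmrp to Malat1 was as steady, from 0.389 in 6 to 0.702 in 4a with an SD of 0.32, and the other ratios plotted had SDs of 0.56 to 0.77. Over the 8 libraries, as a description, Pearson's r of log2 CPM was 0.964 for Rmrp with Malat1, 0.955 for Malat1 with Neat1 and 0.899 for Rmrp with Neat1, so the parallel was not particular to Malat1 and Neat1. These values share library depth and scaling.

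**Figure D3:**
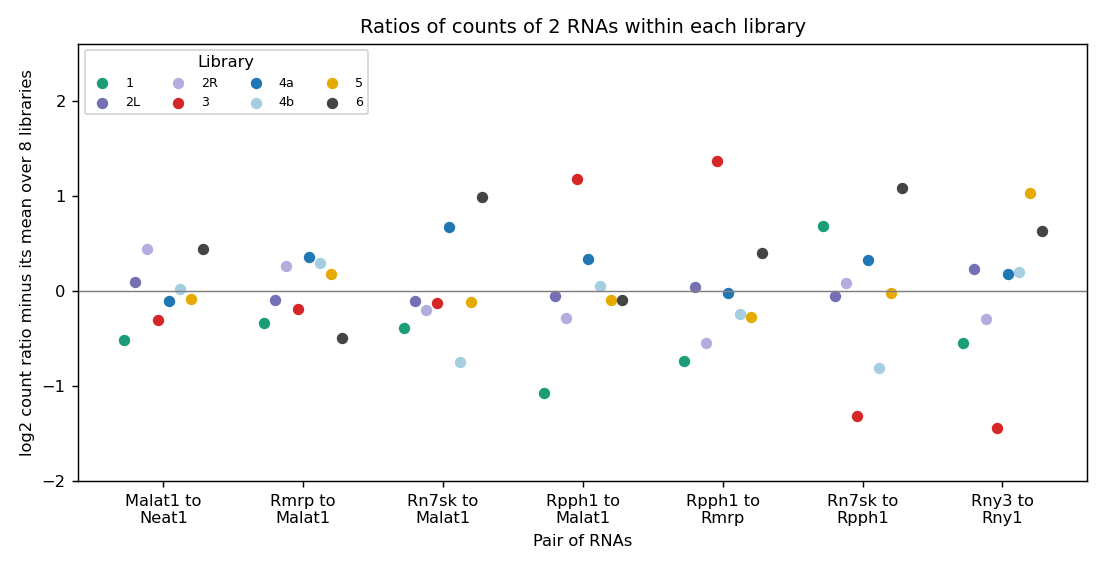
Log2 of the count ratio of 2 RNAs in each library, minus its mean over the 8 libraries, with 1 point per library. Ratios of Malat1 to Neat1 and of Rmrp to Malat1 spread least (SD 0.33 and 0.32), and library 3 is the highest point for both ratios of Rpph1 to another RNA.

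In all, 6 relations between RNAs were tested over the 6 title numbers, with libraries of 1 number averaged and two-sided exact permutation tests, whose smallest possible p is 0.00139. For Malat1 with Neat1 Pearson's r was 0.96, with an exact permutation p of 0.00694 that became 0.0417 after adjustment over the 6 relations. Spearman's rho was 0.94, where the exact permutation p of 0.0167 became 0.1 and did not pass. Without numbers 5 and 6, furthest from the median of Malat1, r was 0.94. The adjusted exact permutation p of r rose to 0.0917 without 2L, 0.0833 without 4a and 0.05 without 4b, while r itself stayed between 0.94 and 0.96.

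The remaining 5 relations did not pass after adjustment. For Rn7sk with Malat1 r was 0.82 (exact permutation p of 0.0486, or 0.146 adjusted), rho was 0.83 (exact permutation p of 0.0583, or 0.175 adjusted), and r was 0.61 when numbers 3 and 5 were left out. For Rpph1 with Rmrp r was 0.71 (exact permutation p of 0.126, or 0.198 adjusted) and rho was 0.66 (exact permutation p of 0.175, or 0.263 adjusted). Its r was -0.09 when 5 and 6 were left out. Few numbers then remain, among them 3, where the count ratio of Rpph1 to Rmrp was highest at 8.25. Leaving out 3 was not run for this relation, so which numbers it rests on was not settled. The Y RNAs gave an r of 0.68 (exact permutation p of 0.132, or 0.198 adjusted) and a rho of 0.77 (exact permutation p of 0.103, or 0.206 adjusted), and r was 0.74 when 4 and 5 were left out. For Rpph1 with Malat1 r was 0.63 (exact permutation p of 0.178, or 0.213 adjusted) and rho was 0.60 (exact permutation p of 0.242, or 0.290 adjusted). Its r was -0.19 when 5 and 6 were left out. Number 3, with the highest count ratio of Rpph1 to Malat1 (3.96), stayed in. Which numbers this relation rests on was not settled either. Rn7sk with Rpph1 had the lowest values, an r of 0.41 (exact permutation p of 0.424, also when adjusted) and a rho of 0.31 (exact permutation p of 0.564, also when adjusted), with an r of 0.42 when 3 and 5 were left out. RNAs of a library share its depth and scaling. With shares of counts in place of scaled levels, 4 of the 6 relations had an adjusted exact permutation p under the threshold.

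**Figure D4:**
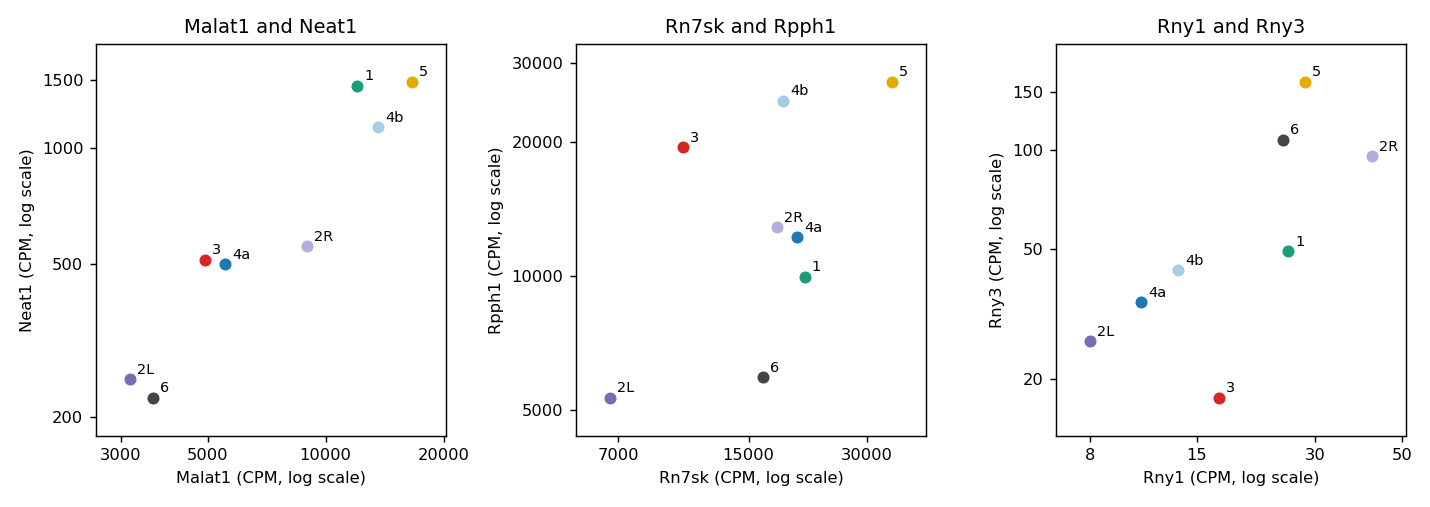
Scaled levels (CPM, log axes) of 3 pairs of RNAs, with 1 labelled point per library. Malat1 and Neat1 lie near a line, with a count ratio of 8.30 to 16.2, whereas library 3 has the lowest ratio of Rn7sk to Rpph1 (0.524) and of Rny3 to Rny1 (1.03).

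The composition of the libraries moved with these levels in part. Mitochondrial ribosomal RNA took 0.877% of counts in 2L, 0.982% in 6 and 2.90% in 4a, the libraries with 3 of the 4 lowest levels of Malat1, and between 8.27% and 24.7% in the others. Library 3, at 15.1%, had a Malat1 level of only 4909 CPM, below that of 4a. The part of composition in the levels was not tested.

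Of 10 speckle and paraspeckle protein genes all passed the filter and 0 were called, beside 0.0% of all genes. Their median SD of log2 CPM was 0.51. Srrm2, a large speckle scaffold, averaged 831 ± 619 CPM (SD, n = 8), with 379 CPM in 2L as the lowest and 2251 CPM in 3 as the highest value, and Son, another scaffold, at 491 ± 126 CPM. Library 3, highest for both, was not high for Malat1 or Neat1. Among RNA polymerase III genes 18 of 19 passed, 0 were called, beside 0.0% of all genes, and the median SD was 0.37. Bdp1 and Brf1, initiation factors, stood at 69.8 ± 16.5 and 44.1 ± 23.2 CPM. Snapc4, a subunit of the complex that binds the promoters of small nuclear RNA genes, varied most, from 9.88 CPM in 6 to 67.6 CPM in 3.

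Libraries 2L and 2R share a title number but differed in all 7 RNAs that passed the filter. Each was at least 2-fold higher in 2R, where 8.33% of the 11505 genes were that much higher (and 9.03% were that much higher in 2L). The log2 ratio of 2L to 2R was -2.37 for Rny1, -1.86 for Rny3, -1.86 for Rmrp, -1.50 for Malat1, -1.41 for Rn7sk, -1.27 for Rpph1 and -1.15 for Neat1. With shares of all counts, 3 of the 7 (Rny1, Rny3 and Rmrp) remained past 2-fold, where 2.54% of genes were and 26.0% were that much higher in 2L, and all 7 RNAs stayed higher in 2R. Mitochondrial ribosomal RNA took 24.7% of counts in 2R and 0.877% in 2L, and 5 skeletal muscle markers took 0.00881% and 2.53%. Their part in the difference was not tested.

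Between libraries 4a and 4b, 4 of the 7 RNAs were past 2-fold and 3 were not. Malat1, Rmrp, Neat1 and Rpph1 were at least 2-fold higher in 4b, with log2 ratios of 4a to 4b of -1.30, -1.24, -1.18 and -1.02, where 1.92% of genes were that much higher in 4b and 2.53% in 4a. Rny3 and Rny1 gave -0.33 and -0.30, and Rn7sk gave 0.12. Rn7sk was thus the 1 RNA of the 7 that was not higher in 4b. Rpph1 lay at the border. With shares of all counts it gave -0.86, which left 3 RNAs past 2-fold, where 1.13% of genes were that much higher in 4b and 4.14% in 4a. Mitochondrial ribosomal RNA took 8.27% of counts in 4b and 2.90% in 4a, and its part was not tested. Each of these comparisons has 1 library on each side and no test.

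**Figure D5:**
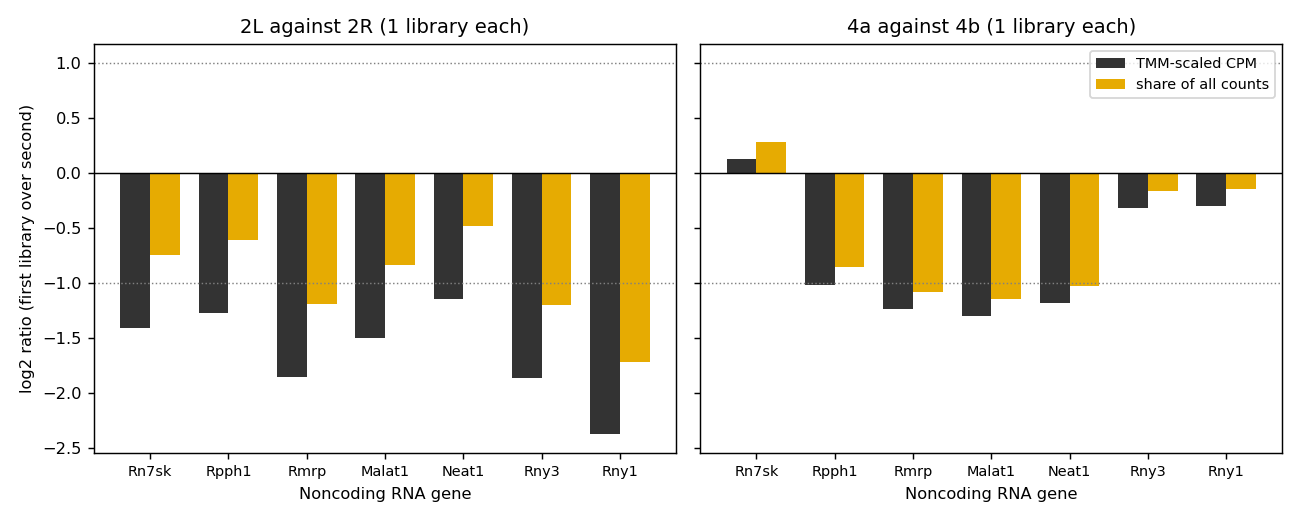
Log2 ratio between libraries of the same title number for the 7 RNAs that passed the filter, as TMM-scaled CPM and as shares of all counts, with dotted lines at 2-fold. All 7 are higher in 2R than in 2L, and Rn7sk alone is not higher in 4b than in 4a.

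The 6 title numbers were compared with edgeR's quasi-likelihood test, which called 0 of the 7 RNAs and 0.0% of all 11505 genes (2813 genes had an unadjusted p under 0.05). Of the 7, 0 had an unadjusted p under 0.05, and the smallest adjusted p were 0.269 for Neat1 and 0.271 for Rny3. The DESeq2 likelihood ratio test called 20.7% of genes and 2 of the 7, Neat1 (adjusted p = 0.0089) and Rny3 (adjusted p = 0.0181). The spread in the test rests on 2L with 2R and 4a with 4b. Without 2L or without 2R, edgeR called 3 of the 7, Neat1, Rny1 and Rny3, where 38.7% and 39.3% of genes were called. With library totals it called 2, Neat1 and Rny3, beside 37.3% of genes. With no filter on low counts it called 4 of the 8, these with Rmrp and Terc, beside 20.6% of genes.

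Other RNAs of the same kinds were measured less fully. Of 20 rows for other small structural RNAs 4 passed the filter and 0 were called, beside 0.0% of all genes. They were led by Snora73b at 137 ± 67.7 CPM and Scarna2 at 74.7 ± 29.9 CPM (SD, n = 8). Both were lowest in 2L. The 7SL genes Rn7s1 and Rn7s2, named after their values were seen, held 1 and 6 counts in all libraries together. How the counting treated reads that fit several places is not given in the sources used here, and 7SL has many copies in the genome. Of 9 other long noncoding RNAs 8 passed and 0 were called, beside 0.0% of all genes, with a median SD of log2 CPM of 0.91. Xist, which coats the inactive X, averaged 782 ± 418 CPM and Meg3, an imprinted RNA, 186 ± 159 CPM (SD, n = 8).

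The genes most alike in pattern to each RNA were taken by Pearson's r of log2 CPM over the 8 libraries among the genes kept, as a description. For Malat1 they were Arid4a (0.99), Tnip2 (0.98) and Prpf39 (0.98), and for Neat1 Bclaf1 (0.99), Srek1 (0.98) and Ambra1 (0.97). For Rmrp they were Gm43421 (0.99), Arhgef25 (0.98) and the small Cajal body RNA Gm22009 (0.98), and for Rpph1 Eif5b (0.98), Snx29 (0.98) and Fam98b (0.97). Rn7sk was most alike to Gm19566 (0.96), Nsrp1 (0.96) and Dmtf1 (0.96). For the Y RNAs they were Blcap (0.93), Cdkn1b (0.93) and Insrr (0.91) for Rny1 and Suco (0.96) and Kbtbd3 (0.95) for Rny3. For Terc the closest were Aen, Tet3 and Zfp704 (0.99 each), whose own pattern is a single high value in library 3.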

How the data were processed

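Per the labels, ribosomal RNA was removed from total RNA of 8 tumors before sequencing. The authors deposited 1 table of raw counts per Ensembl gene. The tools named are STAR 2.7.5a, RSEM, featureCounts and cutadapt, and the build is mm10, per the submitters' processing notes; the role of each and the strand setting are not given in the sources used here. GENCODE M21 named 49412 of 49671 rows, and each of the 8 RNAs matched 1 row. Depth ran from 4817902 to 19682149 counts per library, and intervals cover counting error only.

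Counts were analysed with R 4.3.3 and edgeR 4.0.16. filterByExpr for 1 group (10 counts in a library of median size, 0.920 CPM, in each of the 8 libraries) kept 11505 genes. CPM are counts over the kept counts of a library times its TMM factor, and log2 CPM used a prior count of 2. Genes were tested among the 6 title numbers with the quasi-likelihood F-test (robust prior), adjusted after Benjamini and Hochberg over all genes kept, at 0.05. DESeq2 1.42.0, other scalings and filters, a prior count of 0.5 and leaving out each library were alternatives. The edgeR script was first checked on simulated counts. Relations used exact permutation tests over 6 numbers, adjusted over 6 relations. Copies were sought with BLAST 2.17.0 and sequences aligned with Biopython 1.88.

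The RNAs and gene lists were chosen with earlier results of these data known. Named genes were, from each protein list, the 2 most abundant (mean CPM) and the 1 with the widest SD of log2 CPM among genes kept, the 2 most abundant of other RNA lists, and the 3 genes most alike to each RNA, of which 1 is not reported here.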

Additional observations from a re-analysis of the deposited data

Results flagged for a closer look

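Of 25 sets of 8 values examined (CPM, shares and count ratios), 5 held a library whose gap to the nearest other exceeded Dixon's limit. For normally distributed values chance gives about 1 in 20. These values were not log-transformed and each flagged value was the highest of its set, so that rate may not hold here. The limit was not applied to log2 values, and CPM, shares and ratios of the same RNAs are not independent. Terc was far above the others in library 3, at 13.3 CPM against 0.737 in library 5, and as a share of counts at 0.000519% against 7.18e-05%. This value rests on 25 counts. The count ratio of Rpph1 to Rmrp was 8.25 in library 3, against 4.21 in 6. The ratio of Rpph1 to Malat1 was 3.96 in library 3, against 2.21 in 4a. The ratio of Rn7sk to Rmrp was 11.6 in library 6, against 5.15 in 4a.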

How the results depend on the processing

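Counts of calls depended on the settings. Among title numbers edgeR called 0 genes, but 4296 with library totals, 6260 with no filter and from 0 to 4548 when 1 library was left out, and DESeq2 called 2383. Of the 7 RNAs tested edgeR called 0, but 2 with library totals (Neat1 and Rny3, beside 37.3% of genes) and from 0 to 3 without 1 library. DESeq2 called 2 of the 7, beside 20.7% of genes. With no filter, where all 8 RNAs were tested, edgeR called 4 (Neat1, Rny3, Rmrp and Terc), beside 20.6% of genes. Of 6 relations 1 passed in the main setting, 4 with library totals and 0 to 1 without 1 library of numbers 2 or 4. With library totals r was 0.87 for Rpph1 with Rmrp, 0.94 for Rny1 with Rny3 and 0.91 for Rn7sk with Malat1, each past the threshold. For Malat1 with Neat1 r ran from 0.94 to 0.97 when 2L, 2R, 4a or 4b was left out; leaving out 1, 3, 5 or 6 would leave 5 numbers and was not run. RNAs at least 2-fold apart between 2L and 2R numbered 7, but 3 with library totals, which moved the median log2 ratio of all genes from -0.04 to 0.62; without library 3, an alternative chosen after seeing the data, these counts were 7 for 2L with 2R and 4 for 4a with 4b, as in the main setting. The cause of these changes was not tested. No mean level moved by over 1 SD between libraries in the 88 combinations of RNA and setting run. Leaving out 1 of 8 libraries can hardly move a mean that far, so this limit does not show that the levels were stable. With mitochondrial and 3 other abundant genes left out of the totals, the mean of Rn7sk was 25141 CPM against 18099 CPM, which did not count as a move. The mean of Terc, 1.98 CPM with all libraries, was 0.410 CPM when library 3 was left out before scaling. No paired analysis was possible because the labels hold 1 group. Depth limits Terc and, in library 3, the Y RNAs.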
